A study of Mus musculus with 5 samples.

Results

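The 10 genes described here control how the liver senses, takes up, exports and recycles iron: Hamp and Hamp2 (hepcidins), Slc40a1 (ferroportin), the transferrin receptors Tfrc and Tfr2, Hfe, Hjv (hemojuvelin, also called Hfe2), Bmp6, Tmprss6 and Hmox1. They were taken from a list of symbols, and each was read from the probe set with exactly 1 gene symbol and the highest mean over the 5 arrays. All 10 of 10 were measured, each by 1 such probe set, among 18820 genes and 35556 probe sets in all. The arrays hold RNA from whole livers of adult C57Bl/6 mice. The 3 control liver samples came from mice given a rat IgG control. The 2 treated liver samples came from mice given M279, an antibody against CSF1R, the receptor on which macrophages depend for survival. Every dose in either group was 300 µg into the peritoneal cavity, repeated 3 times a week over 6 weeks. How many animals stand behind a sample is not in the labels. The p-values below reflect array-to-array spread, and whether that spread lies between animals or is technical is unknown.

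Systemic iron is set by hepcidin, a peptide hormone of hepatocytes that binds the iron exporter ferroportin on macrophages, enterocytes and hepatocytes and causes its degradation. Hepcidin transcription follows iron through BMP6, made largely by sinusoidal endothelial cells, which acts with its co-receptor hemojuvelin on hepatocyte BMP receptors and SMAD proteins. HFE and transferrin receptor 2 feed transferrin saturation into the same pathway, the protease TMPRSS6 restrains it by cleaving hemojuvelin, and IL-6 acting through STAT3 raises hepcidin in inflammation. Kupffer cells, the macrophages of the liver, recover iron from old red cells, with haem oxygenase 1 (Hmox1) opening the haem ring.

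The stretches upstream of Hamp, Hamp2 and Tfrc are shown because Hamp had the highest difference between the groups among the 10 genes and Tfrc the lowest, and because its nearby paralog Hamp2 differs from Hamp in the BMP response element. Each line gives the 250 bases before the annotated start of transcription, 5′ to 3′ on the gene's strand, from RefSeq (GRCm38.p6). They lie at chr7:30944030-30944279 (minus strand) for Hamp, chr7:30924182-30924431 (minus strand) for Hamp2 and chr16:32608646-32608895 (plus strand, the upstream one of 2 annotated starts) for Tfrc. Capitals mark the BMP response element GGCGCC and the STAT site TTCNNNGAA, which reads TTCTTGGAA here; the matches do not overlap.
Hamp: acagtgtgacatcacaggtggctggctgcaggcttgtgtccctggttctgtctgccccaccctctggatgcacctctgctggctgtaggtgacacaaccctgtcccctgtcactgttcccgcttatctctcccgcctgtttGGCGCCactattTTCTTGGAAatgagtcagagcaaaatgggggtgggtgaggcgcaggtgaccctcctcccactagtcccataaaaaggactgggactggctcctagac
Hamp2: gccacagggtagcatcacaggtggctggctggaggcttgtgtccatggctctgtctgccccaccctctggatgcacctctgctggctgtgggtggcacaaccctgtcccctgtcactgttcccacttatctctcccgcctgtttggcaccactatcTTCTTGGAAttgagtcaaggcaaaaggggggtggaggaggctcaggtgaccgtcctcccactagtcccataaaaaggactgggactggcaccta
Tfrc: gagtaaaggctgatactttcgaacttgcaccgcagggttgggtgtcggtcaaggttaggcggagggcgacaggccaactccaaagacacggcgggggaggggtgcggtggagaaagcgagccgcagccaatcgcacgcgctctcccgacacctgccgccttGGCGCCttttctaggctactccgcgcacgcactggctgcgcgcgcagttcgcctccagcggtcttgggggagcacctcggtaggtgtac

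In Hamp the BMP response element began 109 bases before the start and the STAT site 97 bases before it. The upstream stretches of Hamp and Hamp2 were identical at 91.9% of 247 aligned bases, and the STAT site was the same in both. The 6 bases of Hamp2 aligned to the BMP response element carried the substitution G4A, counted from 1 at the first base of the element with the base of Hamp first. Tfrc held a GGCGCC that began 89 bases before its start. Over both strands, GGCGCC was present in 9.59% and TTCNNNGAA in 7.02% of 32851 promoter windows of the same length. Of the 6 genes with an upstream sequence in the table used (Hamp, Hamp2, Tfrc, Tfr2, Hfe and Bmp6), no other window held either motif. The E-box CACGTG (6.02% of windows) was found in Bmp6 only, and the antioxidant response element TGACNNNGC (10.2%) in Hfe and Bmp6. A match describes letters in these windows and no site of binding.

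Values below are log2 of the deposited probe set intensity, and a difference is treated minus control in log2 units with its standard error (SE) from limma. After the 6 weeks of antibody the groups overlapped for 7 of the 10 genes. Hepcidin (Hamp, with overlapping groups), its inducer Bmp6 and Hmox1 had higher mean values in treated liver. The transferrin receptor Tfrc had a lower one, and ferroportin, hemojuvelin and Tmprss6 differed by less than 1 SE. The differences ran from -0.66 for Tfrc to 0.44 for Hamp, with 6 genes higher and 4 lower. Their median was 0.09, against 0.04 over all 18820 genes, and the median size of a difference, regardless of sign, was 0.27 against 0.18. In these whole livers, fewer cells of a type and less RNA per cell cannot be told apart.

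With limma fitted over all 35556 probe sets, 0 of the 10 genes had an adjusted p under 0.05, as did 0% of all probe sets. The adjusted p of the 10 ran from 0.207 to 0.843. At an unadjusted p under 0.05 the count was 1 of 10 (Tfrc, lower), where 18.4% of all probe sets, and 8.34% in the lower direction, reached it. This depended on scaling. Bmp6 and Hmox1 also reached it in limma after quantile normalization (p of 0.017 and 0.019) and cyclic loess (0.018 and 0.016). Hamp and Hmox1 did so after arrays were centred on medians (0.045 and 0.040). The share of all probe sets under these scalings was not counted. The groups did not overlap for 3 of the 10 genes, Tfrc below all controls and Bmp6 and Hmox1 above them. Over all 18820 genes 44.6% did not overlap (25.1% above and 19.5% below), so this count does not exceed the background. Quantile normalization gave 6 genes apart (33.9% of all genes) and cyclic loess 5 (33.5%). With a single array left out, the count was 7 without control replicate 2 (54.1% of all genes) or without treated replicate 1 (71.7%), and 3 or 4 when 1 of the others was left out.

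The 5 arrays had median intensities between 32.5 and 33.9, and pairs of arrays correlated at Pearson's r of 0.983 to 0.992 over probe sets. Treated replicate 2 stood farthest from the controls. The hepatocyte marker albumin lay between 13.09 and 13.20 on all 5 arrays. It was brighter than 99.97% of probe sets, and whether it neared the ceiling of the scale was not tested. The 14 measured hepatocyte markers had a median difference of -0.05, with 9 lower and 5 higher. Of the 14, 6 lay below and 1 above all controls, where 19.5% and 25.1% of all genes did. The difference between groups moved with level: genes within 0.5 log2 units of the mean level of Tfrc had a median difference of -0.16, those around Bmp6 and Hmox1 one of -0.13, and those around Hamp one of 0.01. Differences at these middle levels therefore depend on how the arrays are brought to one scale, and values after cyclic loess, which fits such a trend, are given with the genes at these levels and with Hamp. Genes under the median level of all probe sets had a median difference of 0.17 and those at or above it one of -0.10.

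**Figure D1:**
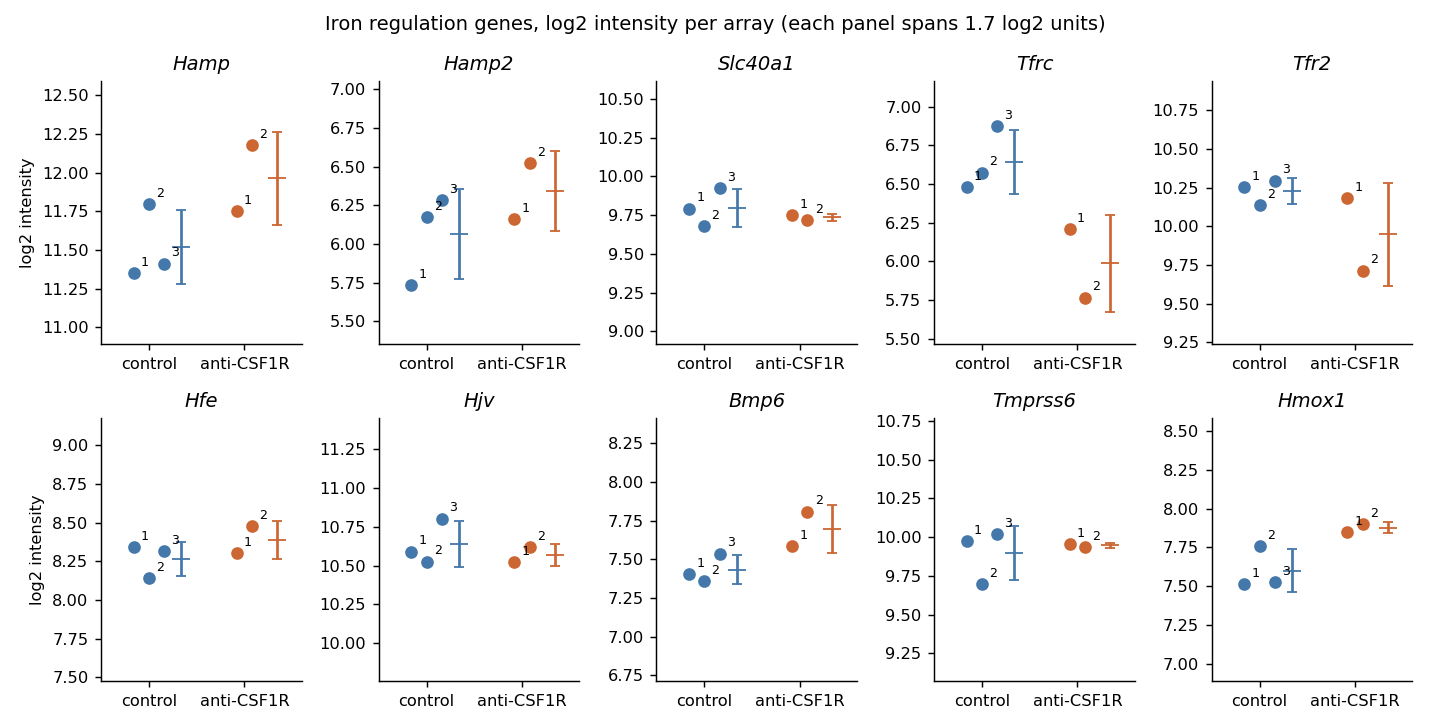
Log2 intensity of each of the 10 genes (y axis, every panel spanning the same 1.7 log2 units) on the 3 control arrays and the 2 anti-CSF1R arrays (x axis), with points numbered by replicate. Horizontal marks and bars are the group mean and SD. Tfrc lies below all controls on both treated arrays, Bmp6 and Hmox1 lie above them, and the other 7 genes overlap.

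Hamp, the gene of the liver's main hepcidin, measured 11.35, 11.79 and 11.41 on control replicates 1, 2 and 3 and 11.75 and 12.18 on treated replicates 1 and 2. Treated replicate 2 was the highest of the 5 arrays, but treated replicate 1 lay just under control replicate 2, so the groups overlapped. The mean was 11.52 ± 0.24 (SD, n = 3) in controls and 11.96 ± 0.30 (SD, n = 2) in treated liver. The difference was 0.44 ± 0.19 (SE), a ratio of 1.36, with a 95% interval of -0.03 to 0.92 and an adjusted p of 0.290 in limma. It was 0.23 without treated replicate 2 and 0.36 after cyclic loess. Hamp was at the 92.1st percentile of all genes by the size of its difference.

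Hamp2, the paralog of Hamp whose upstream stretch carries G4A in the BMP response element, measured 5.73, 6.17 and 6.28 in controls and 6.16 and 6.52 in treated liver. Control replicate 1 was the lowest and treated replicate 2 the highest, and treated replicate 1 fell among the controls. The difference was 0.28 ± 0.21 (SE, adjusted p = 0.459 in limma). It was 0.11 without control replicate 1, 0.10 without treated replicate 2 and 0.46 without treated replicate 1, and 0.43 after quantile normalization or 0.40 after cyclic loess. Whether the Hamp and Hamp2 probe sets bind each other's transcript was not tested. On both genes treated replicate 2 stood above treated replicate 1.

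Inflammation raises hepcidin, and the acute phase list was read beside Hamp. In this list 9 of 12 measured genes were lower and 3 higher, with a median difference of -0.31. On both treated arrays 6 lay below and 1 above all controls (19.5% and 25.1% of all genes did). The serum amyloid gene Saa2 measured 10.69, 8.38 and 9.82 in controls and 6.29 and 7.03 in treated liver (difference -2.97 ± 0.65, SE, adjusted p = 0.192 in limma). Orm2, an orosomucoid, was at -0.45 ± 0.23 with overlapping groups. The 3 higher genes were Lbp (0.16 ± 0.11, above all controls), Orm1 (0.03 ± 0.10) and Crp (0.002 ± 0.10). The part of inflammation in the Hamp values was not tested.

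Slc40a1, the ferroportin gene and the target of hepcidin, measured 9.79, 9.68 and 9.92 in controls and 9.75 and 9.72 in treated liver. Both treated values sat inside the control range. The difference was -0.06 ± 0.12 (SE, adjusted p = 0.771 in limma), and its 95% interval ran from -0.35 to 0.22, which spans changes of moderate size in either direction. It was 0.0005 without control replicate 3 and -0.12 without control replicate 2. Hepcidin acts on the ferroportin protein, which arrays do not measure.

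Tfrc, the receptor that brings transferrin-bound iron into cells, had the largest difference of the 10 genes. It measured 6.48, 6.57 and 6.87 in controls and 6.21 and 5.77 in treated liver, and both treated arrays lay below every control. The mean was 6.64 ± 0.20 (SD, n = 3) in controls and 5.99 ± 0.31 (SD, n = 2) in treated liver, a difference of -0.66 ± 0.19 (SE) with a 95% interval of -1.11 to -0.20 and a ratio of 0.634. Its adjusted p was 0.207 in limma over all probe sets, so it did not pass. The difference was -0.44 without treated replicate 2 and -0.53 after cyclic loess. Tfrc was at the 98.5th percentile of all genes by size of difference.

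Tfrc is also carried in quantity by red cell precursors, and the erythroid marker list was read beside it. Values were higher in treated liver for 8 of its 9 measured genes, with a median difference of 0.22, and 4 lay above all controls (25.1% of all genes did). However, 6 of the 9 were under the median level of all probe sets, where genes in general had a median difference of 0.17. The brightest, Alas2, overlapped (0.16 ± 0.12). The summed intensity of the 9 was 1056 to 1152 in controls and 1151 to 1333 in treated liver, and most of it was Alas2; without it the sums were 155.6 to 169.5 and 188.5 to 196.8. The part of erythroid cells in the Tfrc value was not tested.

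Tfr2, the hepatocyte receptor that senses transferrin saturation, measured 10.25, 10.14 and 10.30 in controls and 10.18 and 9.71 in treated liver. The low value belonged to treated replicate 2 alone, and treated replicate 1 was within the controls. The difference was -0.28 ± 0.16 (SE, adjusted p = 0.372 in limma), -0.04 without treated replicate 2 and -0.51 without treated replicate 1. Hfe, an MHC class I-like protein that binds transferrin receptors, measured 8.34, 8.14 and 8.31 in controls and 8.30 and 8.48 in treated liver, so that the groups overlapped. Its difference was 0.12 ± 0.12 (SE, adjusted p = 0.570 in limma). It was 0.04 without treated replicate 2, 0.21 without treated replicate 1, 0.06 without control replicate 2 and 0.21 after cyclic loess.

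Bmp6, the ligand that raises hepcidin when iron is plentiful, measured 7.40, 7.36 and 7.54 in controls and 7.58 and 7.81 in treated liver. Both treated arrays lay above all controls, treated replicate 1 by a small margin over control replicate 3. The difference was 0.26 ± 0.12 (SE), with a 95% interval of -0.04 to 0.57 and an adjusted p of 0.307 in limma. It was 0.15 without treated replicate 2 and 0.39 after cyclic loess. Sinusoidal endothelial markers did not share a direction: of 15 measured genes 8 were higher and 7 lower, with a median difference of 0.03. Their summed intensity was 7591 to 7959 in controls and 8044 to 8303 in treated liver, a gap that came from Clec4g: without it the sums were 5933 to 6297 and 5937 to 6229.

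Hjv, the hemojuvelin gene, measured 10.59, 10.52 and 10.80 in controls and 10.52 and 10.62 in treated liver. The spread of the controls covered nearly all of it, and the difference was -0.07 ± 0.13 (SE, adjusted p = 0.762 in limma). It was 0.01 without control replicate 3, -0.13 without control replicate 2, -0.02 without treated replicate 1 and -0.12 without treated replicate 2. Tmprss6, which cleaves hemojuvelin, measured 9.97, 9.70 and 10.02 in controls and 9.96 and 9.94 in treated liver. The treated pair fell inside the controls, and the difference of 0.05 ± 0.13 (SE, adjusted p = 0.843 in limma) turned to -0.05 without control replicate 2 and was 0.11 without control replicate 3 and 0.09 without control replicate 1.

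Hmox1, which breaks haem down to iron, carbon monoxide and biliverdin, measured 7.51, 7.76 and 7.53 in controls and 7.85 and 7.90 in treated liver. Both treated arrays lay above all controls and close to each other. The difference was 0.28 ± 0.12 (SE), a ratio of 1.21, with a 95% interval of -0.02 to 0.58 and an adjusted p of 0.291 in limma. No single array moved it by more than 1.5 times: with an array left out it ran from 0.23 to 0.36, and it was 0.39 after cyclic loess. Of the 3 genes whose groups were apart, Hmox1 had the closest treated arrays, with an SD of 0.04 (n = 2) there against 0.14 in controls (n = 3).

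Hmox1 and ferroportin are abundant in Kupffer cells, whose markers were read beside them. Of 16 measured markers 13 were lower and 3 higher, with a median difference of -0.21, and 5 lay below and 1 above all controls (19.5% and 25.1% of all genes did). Their summed intensity was 5215 to 6105 in controls, 4222 on treated replicate 1 and 5608 on treated replicate 2. Those below were Csf1r (-0.56 ± 0.12), Adgre1 (-0.48 ± 0.18), C1qb (-0.35 ± 0.16), Mertk (-0.25 ± 0.13) and Cd163 (-0.80 ± 0.16). Marco lay above (1.34 ± 0.17). Among the overlapping markers, Clec4f was at 8.78 and 9.09 against 9.07 to 9.24 in controls, and Timd4 at 6.34 and 6.92 against 6.68 to 7.12. Relative to the control mean, 2 of the 16 markers were higher on treated replicate 1 and 9 on treated replicate 2. The part of Kupffer cell numbers in the Hmox1 and ferroportin values was not tested.

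**Figure D2:**
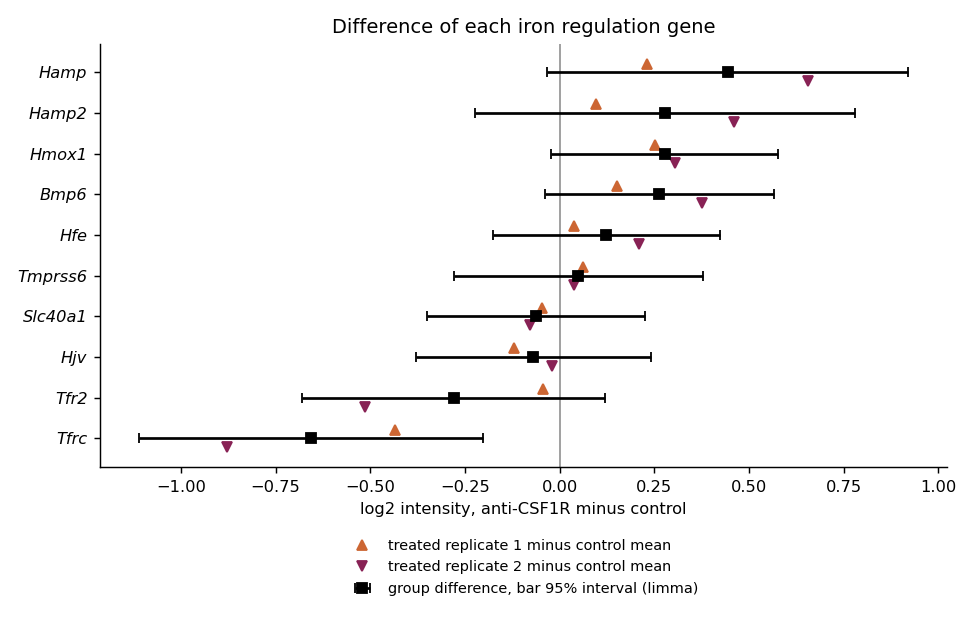
Difference of each gene between anti-CSF1R and control liver (x axis, log2 units), ordered by size. Squares and bars are limma's estimate and its 95% interval over 3 control and 2 treated arrays, and triangles give each treated array minus the control mean. With the deposited scaling, only the interval of Tfrc leaves out 0, before adjustment over all probe sets. Treated replicate 2 lies farther from 0 than replicate 1 for all but Hjv and Tmprss6.

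The size of each difference followed the treated array for most genes. For Hamp, treated replicate 1 stood 0.23 and treated replicate 2 0.66 above the control mean, and for Bmp6 these values were 0.15 and 0.37. For Tfrc they were -0.44 and -0.88. Treated replicate 2 was the highest of the 5 arrays for 5 of the 10 genes (Hamp, Hamp2, Hfe, Bmp6 and Hmox1) and the lowest for 2 (Tfrc and Tfr2). The group differences of Slc40a1, Hjv and Tmprss6 turned sign when a control array was left out.

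**Figure D3:**
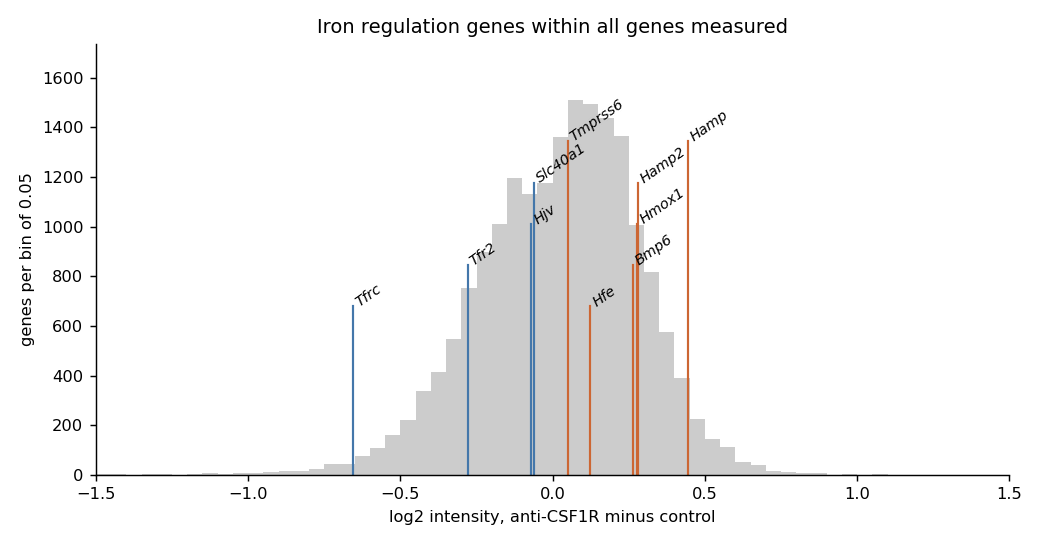
Number of genes (y axis) by difference between anti-CSF1R and control liver (x axis, log2 units, bins of 0.05) for all 18820 genes with 1 probe set each, with lines at the 10 iron regulation genes. Tfrc at -0.66 and Hamp at 0.44 lie in the tails and the other 8 lie in the body of the distribution; line heights carry no value.

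Other genes of the iron pathway were read from lists chosen for their role. None of their genes passed an adjusted p of 0.05 in limma over all probe sets. In the list of iron uptake, storage and transport, 12 of 19 measured genes were lower and 7 higher, with a median difference of -0.21, and 10 lay below and 2 above all controls, where 19.5% and 25.1% of all genes did. The importer gene Slc11a2 measured 8.08, 8.03 and 7.97 in controls and 7.75 and 7.74 in treated liver (-0.28 ± 0.10, SE). The importer Slc39a14 (-0.21 ± 0.12), the ferritin receptor for autophagy Ncoa4 (-0.27 ± 0.14) and ceruloplasmin (Cp, -0.31 ± 0.15) also lay below all controls on both treated arrays. So did the genes with the lowest differences of the list, Lcn2 (-0.98 ± 0.26), Scara5 (-0.85 ± 0.36) and Slc25a37 (-0.42 ± 0.14). These last were named after their values were seen. All the genes named so far from this list were above the median level, where genes in general had a median difference of -0.10. Ferritin chains differed the other way. Fth1 measured 12.41, 12.34 and 12.48 in controls and 12.52 and 12.57 in treated liver, with both treated arrays on top (0.14 ± 0.11), while Ftl1 overlapped (0.28 ± 0.15). Transferrin (Trf) was at 0.01 ± 0.10.

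Iron regulatory proteins bind iron-responsive elements in transcripts such as those of Tfrc, ferritin and ferroportin, and stabilise Tfrc mRNA when iron is scarce. Of 9 measured genes in this list 6 were lower and 3 higher, with a median difference of -0.08. Aco1, which encodes iron regulatory protein 1, measured 10.91, 10.83 and 10.92 in controls and 10.73 and 10.17 in treated liver. Both treated arrays were below all controls, mainly treated replicate 2, and the difference was -0.44 ± 0.18 (SE, adjusted p = 0.271 in limma). Ireb2, for iron regulatory protein 2, was at -0.11 ± 0.16, and Fbxl5, which targets that protein for degradation, at -0.08 ± 0.12. Epas1, the hypoxia-inducible factor 2α gene, was at -0.20 ± 0.14.

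Among BMP ligands, receptors and SMADs, 15 of 25 measured genes were higher and 10 lower, with a median difference of 0.04, the same as over all genes. Of the 25, 6 lay below and 3 above all controls, where 19.5% and 25.1% of all genes did. Bmp2, the other endothelial ligand of this pathway, was at 0.01 ± 0.19. Bmp4, named after its values were seen, had the lowest difference of the list (-0.51 ± 0.17) and lay below all controls. The type I receptor Acvr1 measured 7.67, 7.28 and 7.51 in controls and 7.17 and 7.07 in treated liver, below all controls (-0.37 ± 0.15). Smad1 (-0.24 ± 0.11) and the hemojuvelin partner Neo1 (-0.23 ± 0.12) were also below all controls, and Smad4 (0.12 ± 0.10) above them. Bmpr1a (0.02 ± 0.12), Bmpr2 (-0.09 ± 0.11), Smad5 (-0.11 ± 0.11) and Furin (-0.03 ± 0.11) overlapped. The red cell hormone erythroferrone (Erfe) was at 0.11 ± 0.11 from a low level.

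Target genes of BMP and SMAD signalling were higher for 8 of 9 measured genes, with a median difference of 0.15. Of the 9, 2 lay above and 0 below all controls, where 25.1% and 19.5% of all genes did. Relative to the control mean, 5 of the 9 were higher on treated replicate 1 and 7 on treated replicate 2. Atoh8, a transcription factor induced by BMP6 in liver, measured 7.95, 8.36 and 8.02 in controls and 8.56 and 9.32 in treated liver. Both treated arrays were above all controls, and the difference was 0.83 ± 0.25 (SE, adjusted p = 0.213 in limma). Id2 was the other gene above all controls (0.15 ± 0.10). Id1 measured 6.49, 6.39 and 6.07 in controls and 6.37 and 7.12 in treated liver, so that only treated replicate 2 stood apart (0.43 ± 0.25). Id3 (0.09 ± 0.23), Smad6 (0.07 ± 0.15) and Smad7 (-0.07 ± 0.15) overlapped. The part of BMP signalling in the Hamp values was not tested.

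In the IL-6, activin and STAT3 list, 10 of 18 genes were lower and 8 higher, with a median difference of -0.07. Il6 was dim and variable, at 2.99, 4.45 and 2.81 in controls and 3.55 and 3.53 in treated liver. Stat3 (-0.38 ± 0.20) and its target Socs3 (-0.38 ± 0.23) had lower mean values with overlapping groups. The receptor genes Il6ra (0.15 ± 0.13) and Il6st (-0.07 ± 0.12), Cebpa (0.15 ± 0.14) and Inhbb (0.24 ± 0.15) overlapped, and Creb3l3 lay above all controls (0.13 ± 0.11). Another activin subunit gene, Inhba, named after its values were seen, had the lowest p of the list. It measured 8.85, 8.14 and 8.29 in controls and 7.23 and 7.26 in treated liver, with both treated arrays below all controls (-1.18 ± 0.22, SE, adjusted p = 0.187 in limma).

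Genes of haem synthesis, transport and breakdown were higher for 10 and lower for 7 of 17 measured genes, with a median difference of 0.05. Alas1, the rate-limiting enzyme of haem synthesis in liver, measured 10.67, 11.20 and 10.90 in controls and 10.11 and 9.45 in treated liver. Both treated arrays were well below all controls, and the difference was -1.15 ± 0.24 (SE, adjusted p = 0.190 in limma). The haem exporter Flvcr1 was below all controls too, at 6.68, 6.45 and 6.73 against 6.22 and 5.96 (-0.53 ± 0.14). Fech (0.06 ± 0.10), the biliverdin reductases Blvra (-0.08 ± 0.15) and Blvrb (0.18 ± 0.13) and the lysosomal haem transporter Slc48a1 (0.20 ± 0.16) overlapped.

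The scavengers of haem and haemoglobin had lower mean values for 5 of 6 measured genes, with a median difference of -0.13. Cd163, the haemoglobin receptor of macrophages, measured 6.30, 6.65 and 6.49 in controls and 5.52 and 5.83 in treated liver (-0.80 ± 0.16, adjusted p = 0.188 in limma). The plasma proteins haptoglobin (Hp, -0.16 ± 0.10) and hemopexin (Hpx, -0.10 ± 0.10) also lay below all controls by small amounts, and Lrp1 overlapped (-0.19 ± 0.14). Hmox1 thus had a higher mean value than in controls, while Cd163 had a lower one.

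Genes that control Hmox1 transcription, or share its regulator NRF2, were lower for 9 and higher for 3 of 12 measured genes, with a median difference of -0.10. The repressor Bach1 (-0.09 ± 0.11), the activator Nfe2l2 (-0.06 ± 0.13) and the macrophage factor Spic (-0.12 ± 0.23) overlapped. The NRF2 targets Nqo1 (-0.34 ± 0.17), Gclm (0.03 ± 0.11) and Srxn1 (0.02 ± 0.14) overlapped as well. Of the 12, 1 lay below all controls (Txnrd1, -0.29 ± 0.13) and 1 above them (Maff, 0.20 ± 0.13), both named after their values were seen. Iron-sulphur cluster genes were higher for 13 of 16 measured genes, with a median difference of 0.16, and 2 lay above and 1 below all controls, where 25.1% and 19.5% of all genes did. Relative to the control mean, 8 of the 16 were higher on treated replicate 1 and 14 on treated replicate 2. Iscu was at 0.17 ± 0.14 and Nfs1 at -0.09 ± 0.12, both overlapping.

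**Figure D4:**
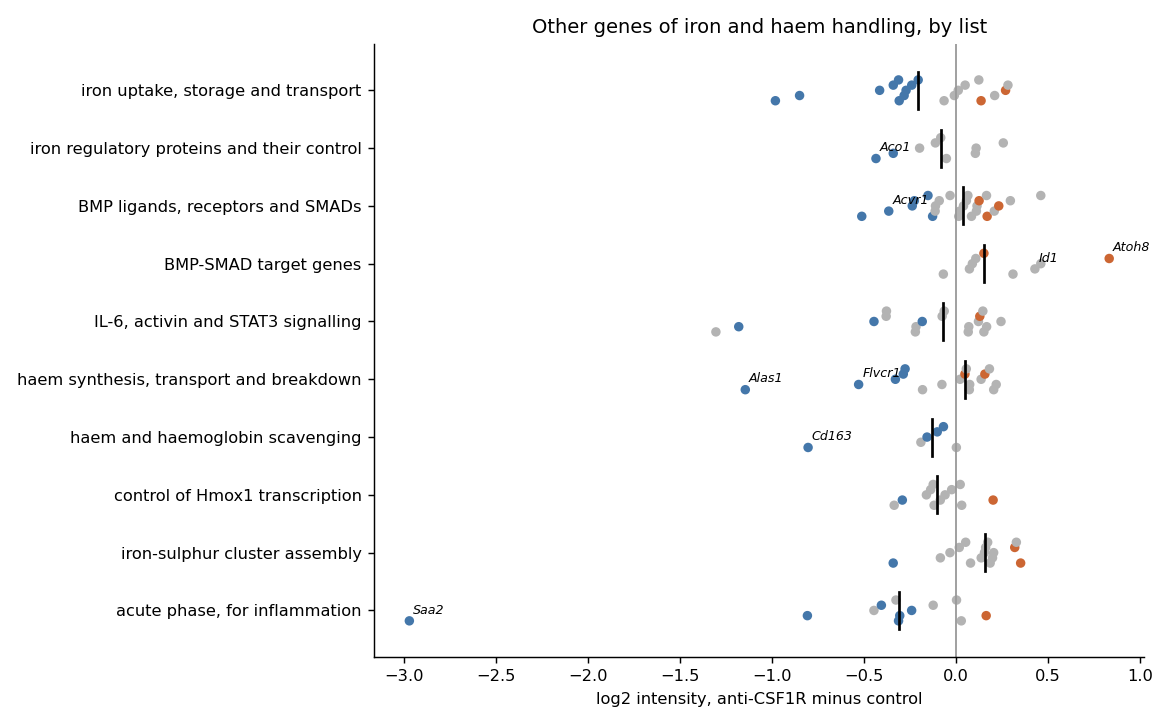
Difference between anti-CSF1R and control liver (x axis, log2 units) for each measured gene of 10 lists (y axis). Orange points lie above and blue points below all controls on both treated arrays, grey points overlap, and black bars are list medians; the median is -0.21 for iron uptake, storage and transport and 0.15 for BMP-SMAD targets.

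The 3 genes whose values over the 5 arrays were nearest to those of Hamp, after each gene was centred on its own mean, were Olfr339, Rtraf and Tm2d1, at Euclidean distances of 0.08, 0.13 and 0.13 log2 units among 18819 genes. Olfr339 was dim, with intensities of 5.57 to 9.35 against 2613 to 4627 for Hamp, and only 9.2% of probe sets were dimmer. Of the other iron regulation genes Hmox1 was the nearest to Hamp, at a distance of 0.35 and rank 421, followed by Hamp2 at 0.44 (rank 1389) and Bmp6 at 0.49 (rank 2426). Tfrc was the farthest, at 1.44 and rank 18640. Since 5 arrays give few ways to differ, these distances only describe the values.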

How the data were processed

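RNA of each sample was amplified as cDNA and hybridised to 1 array, per the labels' protocols. The authors deposited a table of probe set intensity on a linear scale. The submitters' processing notes name Affymetrix Expression Console 1.1; how probe sets were summarised and arrays scaled is not given in the sources. Similar medians leave the scaling unknown, and amplification can alter ratios of dim to bright transcripts. Log2 was taken with no pseudocount or filter. Probe sets were named through the platform annotation: 21218 had 1 symbol, 1881 several, and 12457 were unlisted and are unnamed here. Symbols were updated through RefSeq GRCm38.p6, which gave Hjv for Hfe2.

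The 2 groups were tested two-sided by lmFit and eBayes (limma 3.58.1, R 4.3.3), and p-values were adjusted by Benjamini-Hochberg over 35556 probe sets. Permuting 2 and 3 arrays cannot reach 0.05, so no permutation test was run. The fit was tested on simulated data. Members and lists were chosen with earlier results of these data known. Genes named by plan were all members, list genes chosen for their role, and the 3 nearest to Hamp. Inhba, Bmp4, Lcn2, Scara5, Slc25a37, Lbp, Orm1, Crp, Txnrd1 and Maff were named outside that plan, with their values known. The same holds for single cell type markers other than Cd163. Alternatives covered scaling, filters, a pseudocount of 16, probe set choice, variance model, array weights, a replicate block and leaving out each array. Figures used matplotlib 3.10.9.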

Additional observations from a re-analysis of the deposited data

How the results depend on the processing

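Under each of 16 alternatives 0 of the 10 genes were called in limma; the lowest adjusted p, for Tfrc, was 0.0897 against 0.207. Of 160 gene values under alternatives, 155 kept their direction. The exceptions were Slc40a1 (0.0005) and Hjv (0.0125), each with the replicate block and without control replicate 3, and Tmprss6 (-0.0502) without control replicate 2. With 1 array left out, these ran from -0.1222 to 0.0005, from -0.1269 to 0.0125 and from -0.0502 to 0.1105. The fit on 1 probe set per gene called 14 of 18820 genes, and the mean of all probe sets of a gene 12, against 0 of 35556 probe sets. With the replicate block, 0 were called. The numbers are not said to pair arrays, and control replicate 3, without a partner, drops out of the block estimate. Same-numbered arrays correlated at 0.03 and 0.03 in their deviations from the group means. The deviations of the 2 treated arrays mirror each other, so these values share 1 contrast and cannot decide whether arrays pair. The median difference of the 10 genes ran from 0.0054 to 0.1314. The count of genes with groups apart, whose alternatives were chosen after seeing the data, ran from 3 to 7. The number of arrays limits the precision: the SE of the 10 differences lay between 0.12 and 0.21.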
